A study of Mus musculus with 24 samples.

Results

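Oxidative phosphorylation is the route by which mitochondria turn the energy of food into ATP. Complexes I and II feed electrons from NADH and succinate into the chain, complex III passes them on through cytochrome c, and complex IV hands them to oxygen. Complexes I, III and IV pump protons, and the ATP synthase, complex V, uses the returning protons to make ATP. Most subunits are encoded in the nucleus and are transcribed as a large, broadly active set of genes, often from promoters rich in CpG with sites for NRF1 and for the ETS factor GABPA. Hematopoietic stem cells (HSC) are known for making much of their ATP by glycolysis and for using more oxidative phosphorylation as they leave quiescence and differentiate.

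The genes described here are the nuclear genes of that machinery on a mouse 3' expression array. They were chosen by name: probe sets annotated to a single symbol that starts with Ndufa, Ndufb, Ndufc, Ndufs or Ndufv (complex I), Uqcr (complex III), Cox4i, Cox5, Cox6, Cox7 or Cox8 (complex IV) or Atp5 (complex V), or that is one of the 4 succinate dehydrogenase genes Sdha, Sdhb, Sdhc and Sdhd (complex II). The rule used no measured value. It found 179 probe sets of 45101, which stand for 90 genes of 18193 with 1 symbol. After a filter on low signal, 86 of these 90 genes were tested among 12764 genes: 42 of complex I, its assembly factors included, 4 of complex II, 8 of complex III, 15 of complex IV and 17 of complex V. The 4 genes that did not pass were Ndufb4 and the tissue isoforms Cox7a1, Cox7b2 and Cox8b. Ndufa4, named as a complex I gene, was counted with complex IV, to which its protein is now assigned. The Ndufa4 paralogue Ndufa4l2 is neither a subunit nor an assembly factor in this grouping, and was counted among the 42 genes of complex I. The genes encoded in mitochondrial DNA were not analysed here.

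The arrays hold RNA of cells sorted from the bone marrow of mice aged 8 to 12 weeks on the 129ola background. The hypomorph genotype is Dnmt1-/chip, which pairs a null with a weak allele of the maintenance DNA methyltransferase Dnmt1, and the wildtype genotype is Dnmt1+/+. The 5 groups were hypomorph HSC (3 arrays), wildtype HSC (2 arrays), hypomorph myeloid progenitors (MP, 3 arrays), wildtype MP (3 arrays) and wildtype B cell progenitors (2 arrays). The labels give the genotype of the mice, not of the sorted cells alone. The labels do not say whether arrays of a group came from separate mice, so the p-values measure the spread between these arrays, which may be technical, and groups of 2 or 3 arrays limit the precision.

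Levels are the authors' RMA values, which are log2 probe set intensities, and each gene is represented by its kept probe set with the highest mean. A difference of 1 on this scale is a doubling. Dnmt1 itself was lower in the hypomorph arrays, at 8.94 ± 0.42 (SD, n = 3) against 11.69 ± 0.15 (n = 2) in HSC and 8.14 ± 0.12 (n = 3) against 11.48 ± 0.22 (n = 3) in MP, with limma adjusted p of 2.849e-05 and 7.273e-06. All 13 of 13 B lineage markers were called higher in the B cell progenitors than in HSC, 10 of 11 granulocyte-monocyte markers were called higher in wildtype MP than in wildtype HSC, and 11 of 15 stem cell markers were called lower there. A gene was called where limma's moderated test gave a Benjamini-Hochberg adjusted p under 0.05 over all 12764 genes. In sorted populations measured in bulk, a change in the mix of cells and a change in RNA per cell cannot be told apart.

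Promoters were read for 4 genes on which the results below turn. Cox5a, a ubiquitous complex IV subunit, and Ndufaf4, a complex I assembly factor, were called higher in hypomorph HSC. Cox6b2, the testis form of a complex IV subunit, and Uqcrh, the hinge subunit of complex III, had the lowest levels in B cell progenitors. The lines below give the 250 bases before the RefSeq start site, 5' to 3' on the strand of the gene, in build GRCm38.p6. Capitals mark the letters of a searched motif.
Cox5a, chr9:57520982-57521231, plus strand: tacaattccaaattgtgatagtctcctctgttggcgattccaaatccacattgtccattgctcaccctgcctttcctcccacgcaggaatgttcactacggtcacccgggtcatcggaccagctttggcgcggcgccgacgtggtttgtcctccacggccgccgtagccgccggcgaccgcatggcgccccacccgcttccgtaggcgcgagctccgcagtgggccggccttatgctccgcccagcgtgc
Ndufaf4, chr4:24897833-24898082, plus strand: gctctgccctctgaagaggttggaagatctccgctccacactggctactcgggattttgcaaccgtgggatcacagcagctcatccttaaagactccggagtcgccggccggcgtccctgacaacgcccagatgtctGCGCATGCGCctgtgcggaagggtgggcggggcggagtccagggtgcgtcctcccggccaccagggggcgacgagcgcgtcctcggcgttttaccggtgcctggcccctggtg
Cox6b2, chr7:4753095-4753344, minus strand: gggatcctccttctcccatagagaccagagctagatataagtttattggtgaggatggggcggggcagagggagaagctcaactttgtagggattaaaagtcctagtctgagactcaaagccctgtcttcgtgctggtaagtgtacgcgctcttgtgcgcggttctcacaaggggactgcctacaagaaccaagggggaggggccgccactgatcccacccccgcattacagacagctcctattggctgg
Uqcrh, chr4:116075071-116075320, minus strand: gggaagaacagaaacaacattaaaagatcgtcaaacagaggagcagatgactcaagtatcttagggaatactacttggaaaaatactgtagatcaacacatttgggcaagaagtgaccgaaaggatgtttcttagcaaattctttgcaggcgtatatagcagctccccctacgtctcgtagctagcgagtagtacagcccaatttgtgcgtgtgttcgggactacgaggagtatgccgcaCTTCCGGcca
The Cox5a window holds 26 CpG dinucleotides and the Ndufaf4 window 23, against 11 for Uqcrh and 8 for Cox6b2. Of the other genes called higher in hypomorph HSC, Atp5pb held 20, Ndufb6 10 and Ndufc2 4. In the Ndufaf4 window the capitals GCGCATGCGC are NRF1 letters that begin 113 bases before the start. In the Uqcrh window the capitals are the reverse strand of the ETS letters, beginning 10 bases before the start.

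The RefSeq promoter table held 74 of the 90 genes, and it was not limited to the genes tested here. The NRF1 letters, GCGCA, any base and then GCGC, searched on both strands, stood in 12 of these genes (16.2%) and in 4.23% of all 27025 genes of the table. The ETS letters CCGGAAG stood in 14 (18.9%) against 7.83%, and 3 genes, Atp5h, Cox6a1 and Sdhd, held both. The YY1 letters AAGATGGC stood in 1.35% against 1.83%, and TATAAA in 9.46% against 14.3%. The median window of these genes held 15 CpG dinucleotides, against a median of 6 over the table. The NRF1 and ETS letters contain CpG themselves, and windows of equal CpG content were not compared. Counts ranged from 1 in the muscle isoform Cox8b and 4 in Ndufc2 to 35 in Atp5j, a subunit of the ATP synthase stalk. A letter match is a description of the window and not a measured binding site, and methylation of these windows was not measured in these files.

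Before single comparisons, each array was summarised as the median deviation of the 86 genes from their own means over the 13 arrays. The 3 hypomorph MP arrays stood at 0.37, 0.44 and 0.13 and the 3 wildtype MP arrays at -0.21, 0.26 and -0.09. The 5 HSC arrays lay between -0.05 and 0.15, and the 2 B cell progenitor arrays at -0.46 and -0.21. The median over all genes lay between -0.19 and 0.15 on the same arrays. Hypomorph MP 1 and 2 were therefore the highest arrays for these genes, and wildtype MP 2 lay inside the hypomorph MP range. Hypomorph MP 3 lay below wildtype MP 2 and hypomorph HSC 3. The B cell progenitor arrays were low, and wildtype MP 1 was about as low as B cell progenitor 2. The median over all genes was also lowest on the B cell progenitor arrays, at -0.19 and -0.12.

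**Figure D1:**
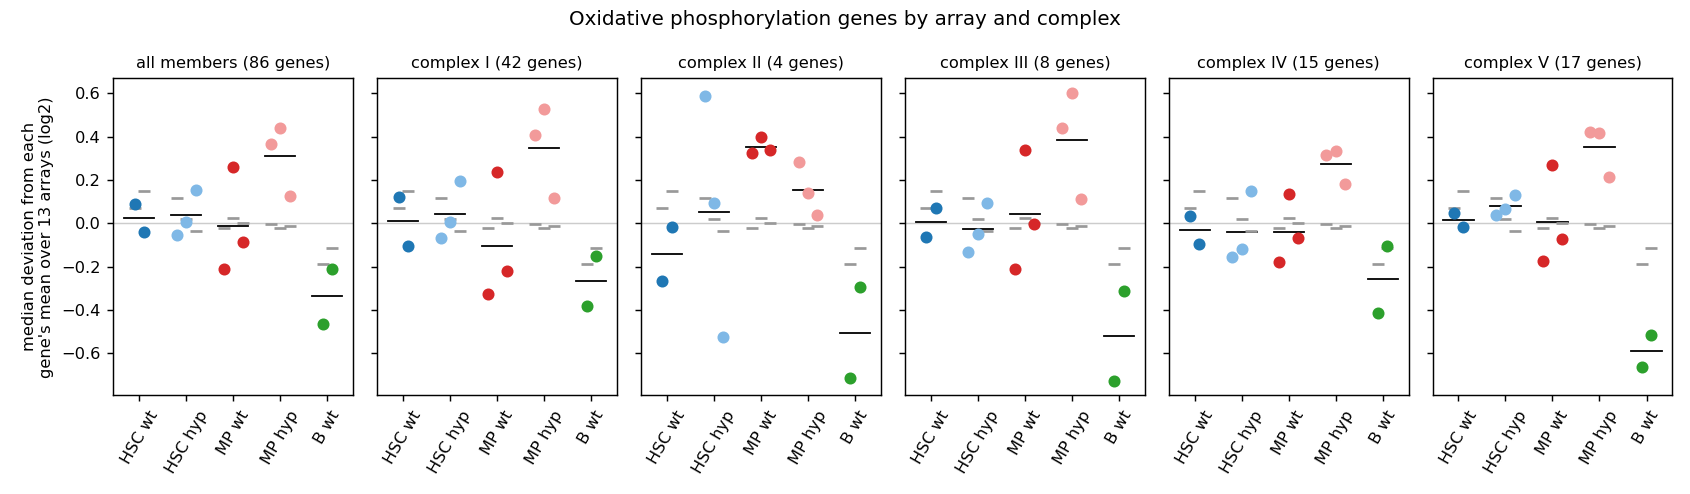
Each point is 1 array, and its height is the median deviation (log2) of the tested genes of all complexes or of a single complex from each gene's mean over 13 arrays. Black bars are group means and short grey bars are the median over all genes tested on that array. The hypomorph MP arrays stand above 0 in every panel, and the B cell progenitor arrays stand below 0.

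The array-wide pattern was shared by the medians of 4 of the complexes and differed in the median of complex II. For complex I, the hypomorph MP arrays stood at 0.41, 0.53 and 0.11 and the wildtype MP arrays at -0.33, 0.24 and -0.22. For complex II, the order was turned: the wildtype MP arrays stood at 0.32, 0.40 and 0.34, above all 3 hypomorph MP arrays at 0.28, 0.14 and 0.04. Complex II has 4 genes, which did not move as one. Hypomorph and wildtype MP means were 10.98 and 11.50 for Sdha and 9.73 and 10.20 for Sdhd. They were 10.92 and 10.83 for Sdhb and 9.03 and 9.05 for Sdhc. The probe sets of Sdhd disagreed in direction between the MP genotypes. Complex II also spread most widely within hypomorph HSC, at 0.59, 0.09 and -0.53. Complex V stood at -0.66 and -0.51 in the B cell progenitors, where the other 11 arrays lay between -0.17 and 0.42. The median within-group SD was 0.31 for these genes and 0.30 for all genes tested, ranging from 0.23 in complex IV to 0.38 in complex II.

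**Figure D2:**
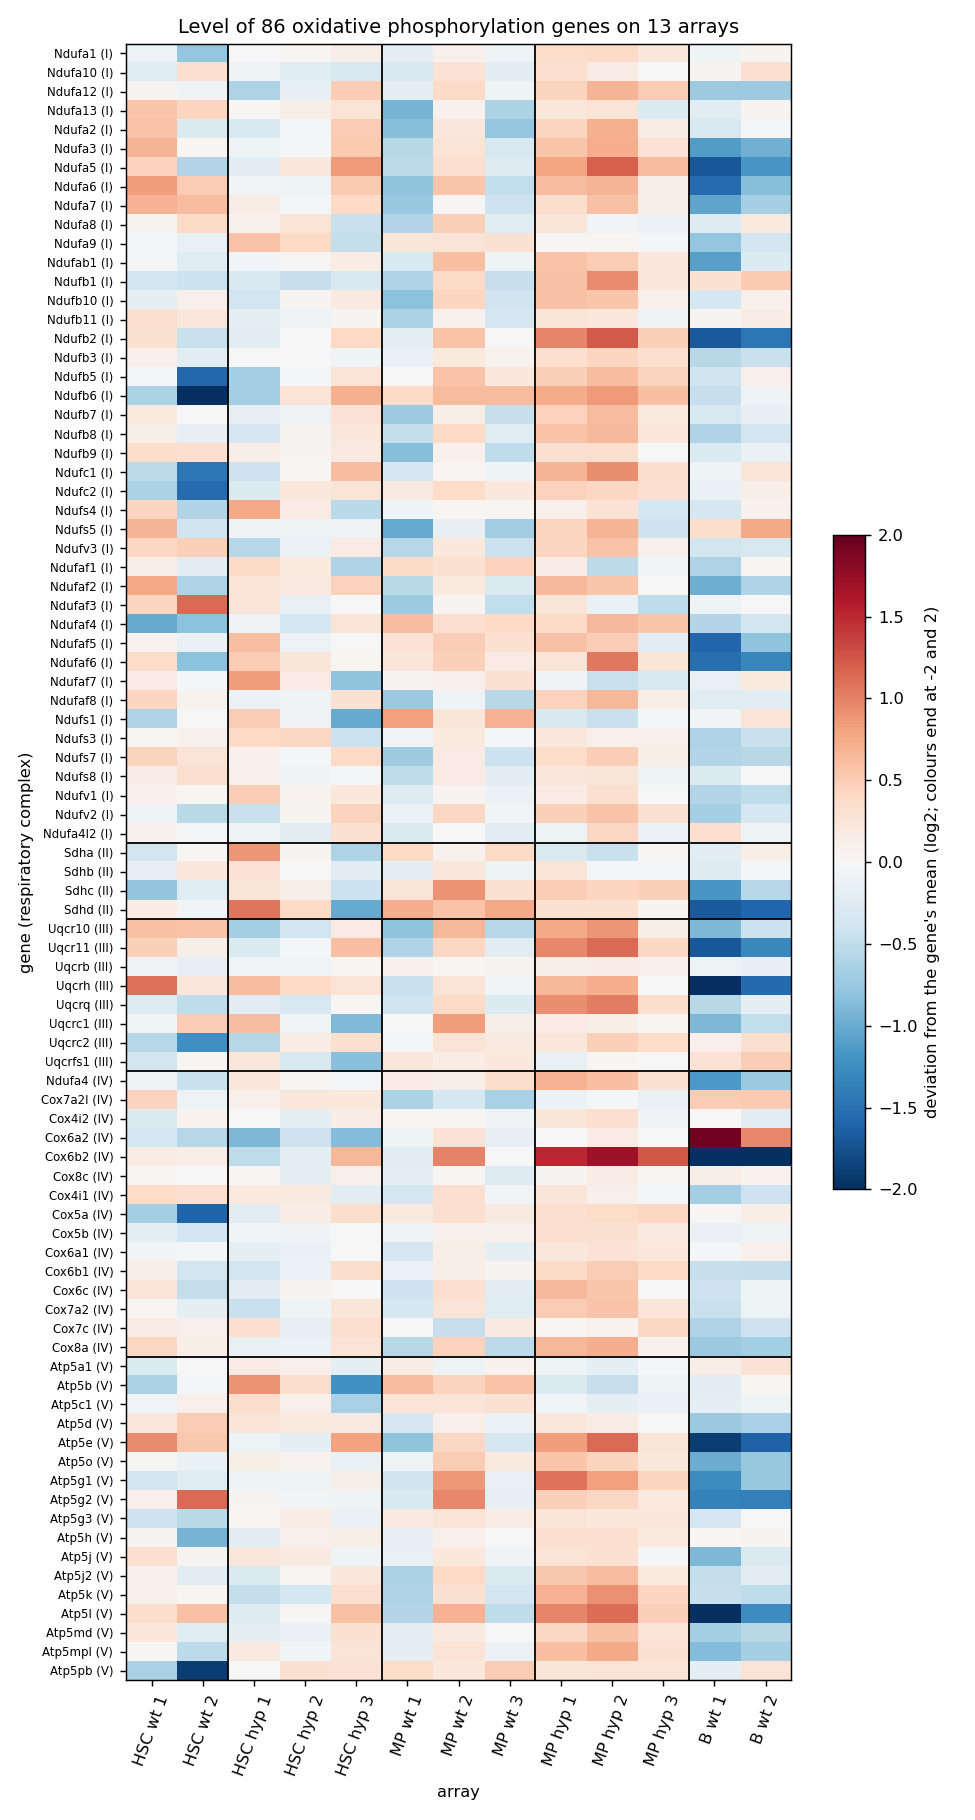
Deviation (log2) of each of the 86 tested genes from its own mean, with 1 column for each of the 13 arrays and 1 line of cells for each gene, grouped by complex I to V. Red is above and blue below the gene's mean, and colours end at -2 and 2. The column wildtype HSC 2 is blue for a small set that includes Ndufb6, Ndufc2, Cox5a and Atp5pb, and the B cell progenitor columns are blue for Uqcrh, Atp5e, Atp5l and Cox6b2.

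The first question was whether stem cells with low Dnmt1 carry more or less of this machinery than wildtype stem cells. In hypomorph HSC, 5 of the 86 genes were called higher and 0 lower, where 10.8% of all genes tested were called, 5.37% higher and 5.44% lower. The median change over the 86 genes was 0.02, against -0.11 over all genes tested, and 45 of 86 lay above 0 (40.4% of all genes). Without wildtype HSC 2 the median turned to -0.09, below the -0.05 of all genes, with 34 of 86 above 0. By complex the median was 0.01 in I, 0.19 in II, -0.16 in III, close to 0 in IV and 0.04 in V. Without overlap between the arrays of the 2 groups, 11 genes were higher and 10 lower, where 13.1% and 22.5% of all genes were. The share called in either direction, 5.81%, lay below the 10.8% of all genes. As all 5 calls were higher, it lay close to the 5.37% of all genes called higher.

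The 5 called genes came from complexes I, IV and V. Atp5pb encodes the b subunit of the peripheral stalk that holds the ATP synthase together. Its level was 12.12, 12.42 and 12.41 on the hypomorph HSC arrays and 11.47 and 10.21 on the wildtype arrays. All 3 hypomorph arrays lay above both wildtype arrays, and wildtype HSC 2 was the lowest by more than 1 log2 unit. The change was 1.48 (SE 0.30, limma adjusted p = 0.007433), a 2.78-fold difference. Its other, dimmer probe set gave 0.94, which was not called. Cox5a was 12.41, 12.78 and 12.97 on the hypomorph and 11.95 and 11.02 on the wildtype arrays, a change of 1.23 (SE 0.26, limma adjusted p = 0.00888). Its groups did not overlap, and its 2 further probe sets changed by 1.21 and 0.93, each called.

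Of the complex I genes, the accessory subunit Ndufb6 was 10.53, 11.48 and 11.91 on the hypomorph and 10.58 and 8.25 on the wildtype arrays. The groups overlapped, and wildtype HSC 2 stood far below the other 4 arrays. Its change was 1.89 (SE 0.51, limma adjusted p = 0.03204), and its other probe set gave 0.54, which was not called. Ndufc2, another accessory subunit of the membrane arm, was 12.16, 12.66 and 12.69 against 11.79 and 10.88, a change of 1.17 (SE 0.26, limma adjusted p = 0.01276). Its 2 other probe sets gave -0.16 and -0.34, so its direction depended on the probe set. Ndufaf4, which helps to assemble complex I, was 9.34, 9.06 and 9.68 against 8.41 and 8.59, a change of 0.86 (SE 0.22, limma adjusted p = 0.02228). Here both wildtype arrays lay close together, and the other probe set of the gene gave 1.37, which was called.

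Leaving out wildtype HSC 2 reduced 4 of the 5 changes and ended all 5 calls. The wildtype HSC group then holds 1 array, which is assumed to vary like the other groups, and the same holds wherever an array of a group of 2 is left out. Without it, 0 of the 86 genes passed limma's threshold, with changes of 0.85 for Atp5pb (limma adjusted p = 0.1051), 0.76 for Cox5a (0.1358), 0.72 for Ndufb6 (0.4339), 0.71 for Ndufc2 (0.1921) and 0.95 for Ndufaf4 (0.08788). The change of Ndufaf4 was not smaller without that array. Without wildtype HSC 1 there were 10 calls, and Ndufb6 changed by 3.05; without hypomorph HSC 2 there were 3. With the HSC arrays fitted alone there were 0 calls, and 1.1% of all genes were called. Ndufaf4 was also not called without wildtype HSC 1 (limma adjusted p = 0.07977) or hypomorph HSC 3 (0.052), nor Ndufb6 without hypomorph HSC 2 (0.09489) or 3 (0.07503), nor Ndufc2 without hypomorph HSC 2 (0.05115).

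Other gene lists moved in the same comparison. Of 29 genes of DNA replication and mitosis, 20 were called higher in hypomorph HSC, and the mean log2 level of the list was 10.00 to 10.30 on the hypomorph against 8.77 to 8.80 on the wildtype arrays. Of 7 mast cell and basophil markers, 6 were called higher, with a mean list level of 6.88 to 7.86 against 4.36 to 4.76. For granulocyte-monocyte progenitor and for erythroid markers, 3 of 11 each were called higher, and 4 of 15 stem cell markers were called lower and 1 higher. The part of these lists in the changes of Atp5pb, Cox5a, Ndufb6, Ndufc2 and Ndufaf4 was not tested.

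**Figure D3:**
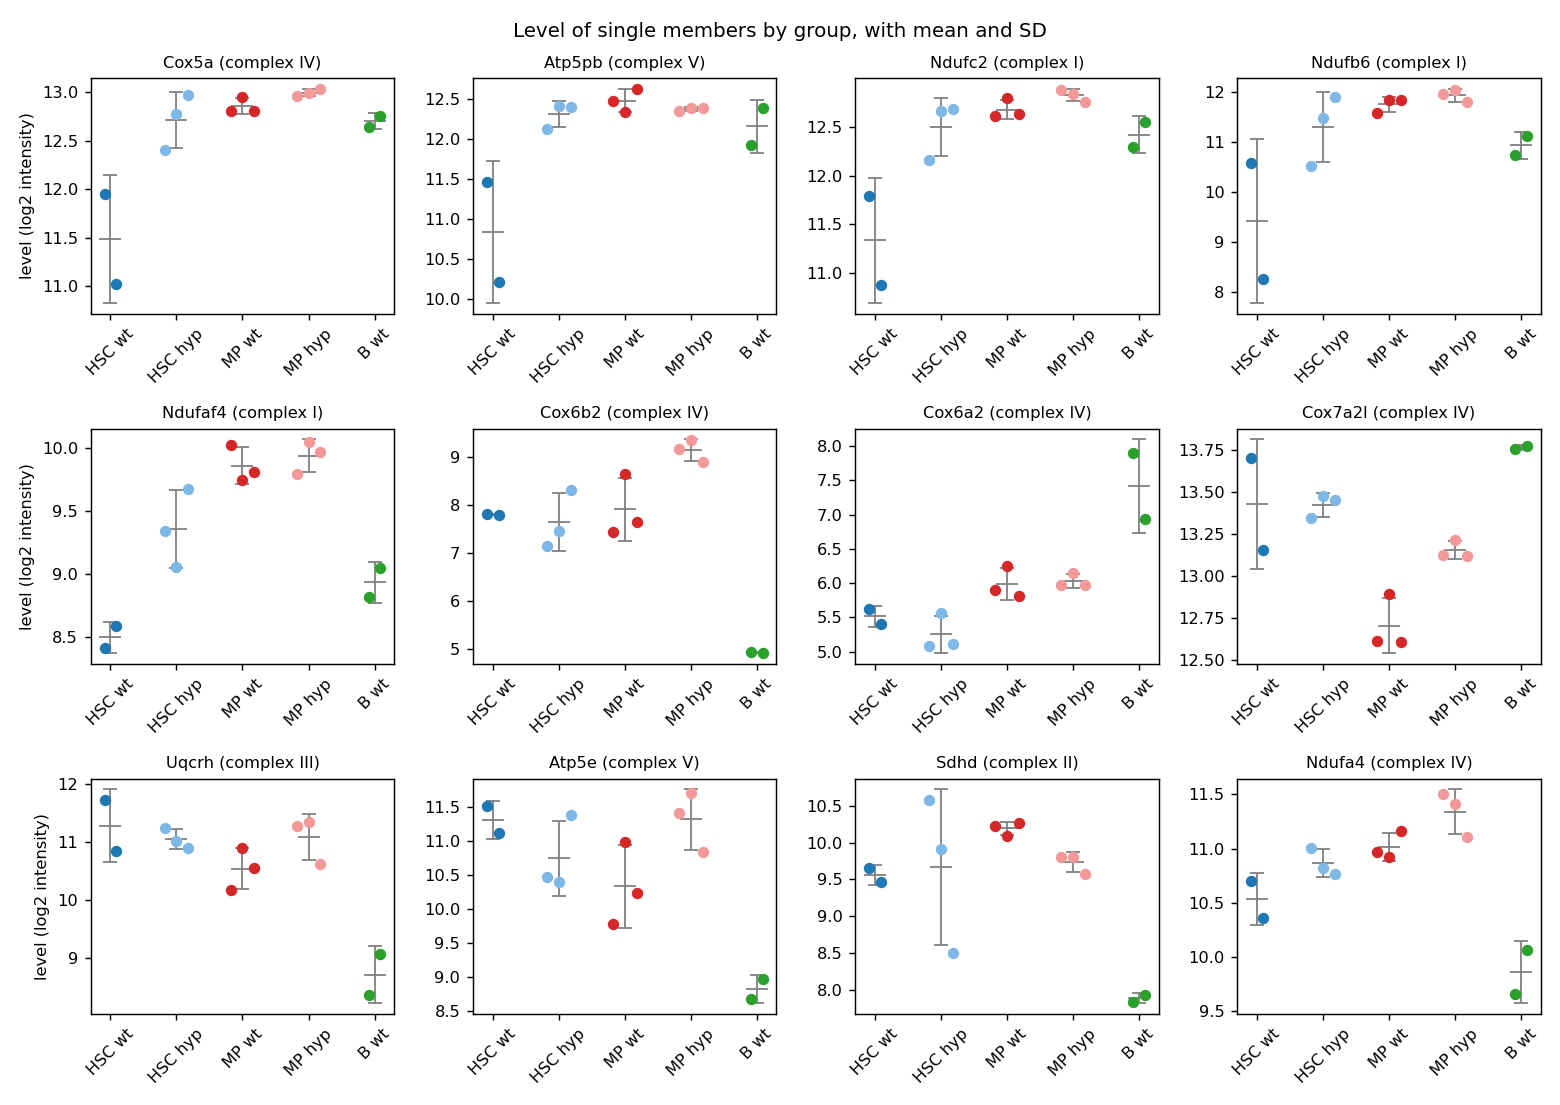
Level (log2 intensity) of 12 single genes on every array by group, with horizontal bars for the group mean and SD. Cox5a, Atp5pb and Ndufc2 are lowest on the 2 wildtype HSC arrays, Cox6b2 is highest on the 3 hypomorph MP arrays, and Cox6b2, Uqcrh, Atp5e and Sdhd are lowest on the 2 B cell progenitor arrays. Each panel has its own vertical range, so levels are not to be compared between genes.

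In myeloid progenitors the genotype comparison gave no call and a median above that of all genes. Of the 86 genes, 0 were called by limma in either direction, where 0.588% of all genes were called, 0.337% higher and 0.251% lower. Without adjustment, 32 of the 86 had p under 0.05, as did 1911 of all 12764 genes. The median change was 0.32, against -0.02 over all genes, and 72 of 86 genes (83.7%) lay above 0, against 47.8% of all genes. Without overlap between the 3 hypomorph and 3 wildtype arrays, 20 genes were higher and 9 lower, where 11.4% and 16.3% of all genes were. The genes share arrays, so these counts describe 6 arrays and are not 86 separate observations.

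Medians lay above 0 in 4 complexes. The median change was 0.38 in complex I (37 of 42 above 0), 0.38 in complex III (6 of 8), 0.32 in complex IV (15 of 15) and 0.25 in complex V (13 of 17). Complex II had a median of -0.24, with 1 of 4 above 0. Within complex I, values ran from -0.85 (Ndufs1) to 1.01, and within complex V from -0.84 (Atp5b) to 0.99. Of the 9 genes lower without overlap, 4 were of complex I, 2 of II, 1 of III and 2 of V, the F1 subunits Atp5b and Atp5c1. Levels of Atp5b were 11.64, 11.45 and 11.82 on the hypomorph and 12.55, 12.37 and 12.49 on the wildtype MP arrays. Lower levels were thus not particular to complex II.

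Single genes show how close the arrays lay. Cox6b2 had the largest difference, with levels of 9.16, 9.35 and 8.89 on the hypomorph and 7.43, 8.64 and 7.64 on the wildtype MP arrays. The groups did not overlap, and wildtype MP 2 came nearest to the hypomorph arrays. The difference was 1.23 (SE 0.32, limma adjusted p = 0.1395). Ndufaf8, a complex I assembly factor, was 11.05, 11.24 and 10.71 against 9.84, 10.49 and 10.03, a difference of 0.88 (SE 0.22, limma adjusted p = 0.1216). Uqcrq, a small subunit of complex III, was 10.97, 11.07 and 10.39 against 9.65, 10.45 and 9.77, and Atp5k, the e subunit of the ATP synthase, was 12.45, 12.66 and 12.18 against 11.14, 12.05 and 11.36. For Uqcrq the arrays overlapped, and for Atp5k they did not, with differences of 0.86 (limma adjusted p = 0.1702) and 0.91 (0.1717). Sdha, the catalytic flavoprotein of complex II, was 10.93, 10.76 and 11.23 against 11.62, 11.30 and 11.59, lower on every hypomorph array, with a difference of -0.53 (limma adjusted p = 0.4276).

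Array wildtype MP 2 stood apart from the other wildtype MP arrays for these genes. On it, 71 of the 86 genes lay above their group's fitted mean, while 12 did on wildtype MP 1 and 23 on wildtype MP 3. Its median residual was 0.31, against 0.02 over all genes on that array. Hypomorph MP 3 stood low in its own group, with 12 of the 86 genes above the fitted mean and a median residual of -0.18. Without wildtype MP 1 the median change was 0.23, with 67 of 86 genes above 0 and no call. Without wildtype MP 2, limma called 8 of the 86 genes higher and 0 lower, 1.44% of all genes were called, and the median change was 0.46. The 8 were Cox6b2 (1.60, limma adjusted p = 0.02634), Atp5l (1.41, 0.04947), Atp5k (1.18, 0.04405), Ndufb1 (1.11, 0.03744), Uqcrq (1.10, 0.04494), Ndufaf8 (1.07, 0.04196), Ndufb7 (1.02, 0.04252) and Ndufb9 (0.89, 0.04709). With weights for each array, which gave wildtype MP 2 a weight of 0.50 and the other wildtype MP arrays 2.73 and 4.80, 44 genes were called higher and 6 lower, and 30.6% of all genes were called. Leaving out hypomorph HSC 3, an array of another cell type, gave 1 call, Cox6b2 (limma adjusted p = 0.04927), by way of the shared estimate of spread.

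Some markers of other cells were called in the same comparison, where 0.588% of all genes were called, 0.337% higher and 0.251% lower. In each marker list with a call, the share called lay above that of all genes. Of the marker lists, 1 of 11 granulocyte-monocyte, 1 of 7 mast cell and basophil and 1 of 7 macrophage and stroma genes were called higher, 1 of 15 stem cell and 2 of 13 B lineage genes lower, and 0 of 29 replication, 11 erythroid, 9 neutrophil and monocyte, 8 megakaryocyte and 6 T and NK cell genes in either direction. The mean level of the neutrophil and monocyte list was 7.36 to 8.27 on the hypomorph arrays and at most 7.29 on the wildtype arrays. The mast cell list stood at 8.78 to 9.06 against 8.26 to 8.52, the macrophage and stroma list at 5.86 to 6.01 against 5.52 to 5.67, and the stem cell list at 6.59 to 6.85 against 6.98 to 7.51. The replication list stood at 9.98 to 10.21 against 10.24 to 10.34. The B lineage list stood at 4.67 to 4.75 against 4.94 to 5.06, and the list of the tricarboxylic acid cycle and pyruvate entry at 9.58 to 9.66 against 9.77 to 9.88. These 7 of the 13 lists did not overlap between the genotypes, and their part in the result was not tested.

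**Figure D4:**
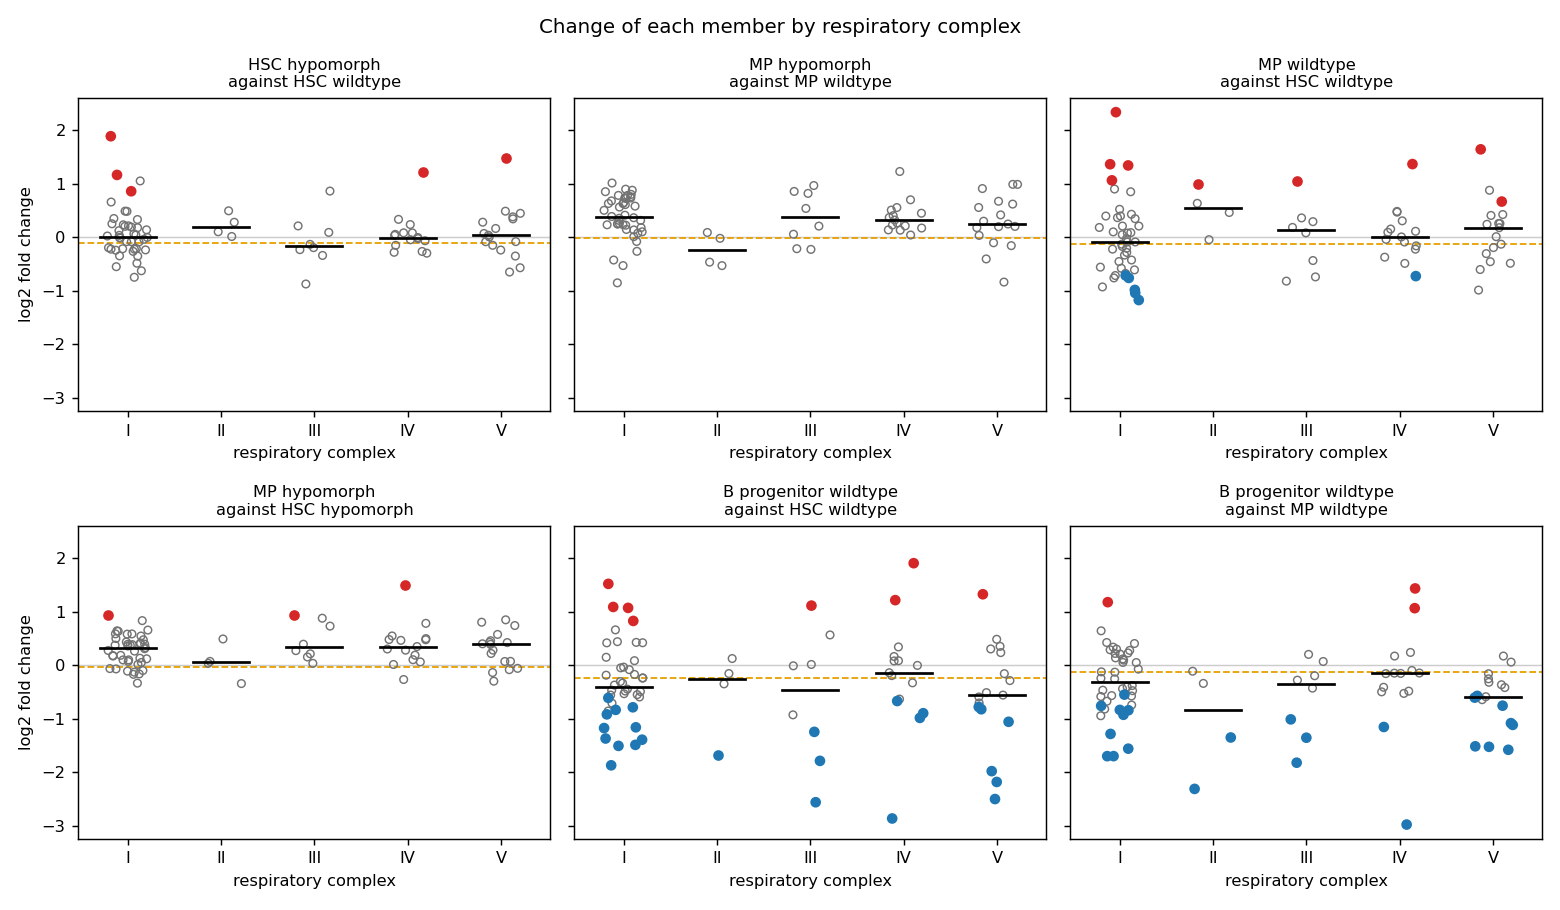
Log2 fold change of each tested gene (1 point each) by respiratory complex in 6 comparisons. Red points were called higher and blue points lower, open points were not called, black bars are the median of the complex and the dashed gold line is the median over all genes tested. In MP the points of complexes I, III, IV and V lie mostly above 0 with no call, and in B cell progenitors against HSC 25 points are called lower and 8 higher.

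Whether the genotype effect differs between the cell types was tested as the difference of the 2 effects, MP minus HSC. Limma called 1 of the 86 genes, where 5.64% of all genes were called, 2.37% higher and 3.27% lower. Atp5pb had an effect of 1.48 in HSC and -0.10 in MP, a difference of -1.58 (SE 0.40, limma adjusted p = 0.03597), with MP levels of 12.35, 12.39 and 12.40 in hypomorph and 12.49, 12.34 and 12.63 in wildtype. The MP arrays overlapped, and all 6 lay near the hypomorph HSC arrays. The call was lost in 10 of 23 alternative settings, among them without wildtype HSC 2, where the difference was -0.95 (limma adjusted p = 0.1339). It was also lost without hypomorph HSC 2, without any of the 3 hypomorph MP arrays, and without wildtype MP 1 or 3, with adjusted p between 0.06393 and 0.09953.

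The median difference over the 86 genes was 0.31, against 0.09 over all genes, and 58 lay above 0 (55.4% of all genes). With every array centred on its median these were 0.16 and -0.07, and without wildtype HSC 1 they were 0.20 and 0.13. Cox5a had a difference of -1.09 (SE 0.34, limma adjusted p = 0.07875), Ndufa7, an accessory subunit of complex I, one of 1.22 (0.34, 0.05173), Uqcr10, a small subunit of complex III, one of 1.69 (0.53, 0.07588), and Cox6b2 one of 1.38 (0.48, 0.1073). None of these 4 passed. The count rose to 12 without hypomorph HSC 3, to 16 without wildtype MP 2 and to 4 without wildtype HSC 1, and fell to 0 without each of the arrays named for Atp5pb.

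Wildtype myeloid progenitors were compared with wildtype HSC to ask how these genes differ between the cell types themselves. Of the 86 genes, 9 were called higher and 6 lower in MP, where 31.8% of all genes were called, 13.8% higher and 18% lower. The median change was 0.03, against -0.12 over all genes, and 45 of 86 lay above 0 (42.1% of all genes). The sign of that median turned without wildtype MP 2 (-0.12), without wildtype HSC 2 (-0.07) and with array weights (-0.08), each with 37 to 39 genes above 0. Complexes I (4 higher, 5 lower) and IV (1 and 1) were called in both directions, while the calls in complexes II (1), III (1) and V (2) were all higher. Without overlap, 23 genes were higher and 11 lower, where 23% and 33.7% of all genes were. Centring every array on its median moved the median of all genes from -0.12 to 0.03 and the calls to 11 higher and 4 lower.

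The genes called higher included those called in the hypomorph HSC. Both comparisons use the same 2 wildtype HSC arrays, so the values stand side by side and are not separate evidence. Wildtype MP levels were 12.49, 12.34 and 12.63 for Atp5pb (change 1.64, SE 0.30, limma adjusted p = 0.001011; other probe set 0.91, not called) and 12.81, 12.95 and 12.81 for Cox5a (1.37, 0.26, 0.00128). They were 12.61, 12.79 and 12.63 for Ndufc2 (1.34, 0.26, 0.001628), and its other probe sets gave 0.22 and -0.32. Ndufb6 was 11.59, 11.84 and 11.84 (2.34, 0.51, 0.003658), and Ndufaf4 was 10.03, 9.75 and 9.81 (1.37, 0.22, 0.0003785). For all 5 genes every wildtype MP array lay above both wildtype HSC arrays.

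Other called genes spread over the complexes. Uqcrc2, a core subunit of complex III, was 1.04 higher (SE 0.27, limma adjusted p = 0.01037), and Sdhc, a membrane anchor of complex II, was 1.00 higher (0.28, 0.016). Atp5g3, one of the genes for the c-ring of the ATP synthase, was 0.67 higher (0.19, 0.01505). The genes called lower were led by Ndufaf3, an assembly factor, at -1.17 (SE 0.29, limma adjusted p = 0.007718), Ndufa7 at -1.04 (0.25, 0.006657) and Ndufa13, also called Grim19, at -0.98 (0.28, 0.01622). Cox7a2l, which joins complexes III and IV into supercomplexes, was 12.61, 12.89 and 12.61 on the MP arrays and 13.70 and 13.15 on the HSC arrays, a change of -0.72 (0.20, 0.01518). Its groups did not overlap.

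Of these 15 calls, Atp5pb, Cox5a, Ndufaf4, Ndufc2 and Ndufa7 held in each of the 13 fits that left out 1 array. Without wildtype HSC 2 there were 5 calls higher and 4 lower, and Ndufb6 (1.17, limma adjusted p = 0.06179), Uqcrc2 (0.71, 0.1382), Atp5g3 (0.60, 0.08981) and Ndufaf3 (-0.82, 0.1114) were not called, while Atp5pb at 1.02, Cox5a at 0.90 and Ndufc2 at 0.89 were still called. Without wildtype HSC 1, Sdhc (0.73, limma adjusted p = 0.1406), Cox7a2l (-0.45, 0.1569) and Ndufa13 (-0.92, 0.07731) were not called. Sdhc also missed the threshold without wildtype MP 2 (limma adjusted p = 0.0511), Cox7a2l without wildtype MP 1 (0.05643) or 3 (0.05879), and Ndufa13 without wildtype HSC 2 (0.06011), wildtype MP 1 (0.07301) or 3 (0.0587). Without wildtype MP 2 the calls were 7 higher and 19 lower. Other lists moved in this comparison too, and their part was not tested. Called higher in MP were 25 of 29 replication genes, 6 of 7 mast cell and basophil markers and 6 of 11 erythroid markers. Of the erythroid markers 1 was called lower.

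In hypomorph cells the step from HSC to MP gave 3 calls, all higher, where 11.6% of all genes were called, 4.18% higher and 7.47% lower. The median change was 0.32, against -0.03 over all genes, and 72 of 86 genes lay above 0 (46.3% of all genes). The medians ran from 0.05 in complex II to 0.39 in complex V. Without overlap, 27 genes were higher and 1 lower, where 11.6% and 15.9% of all genes were. This comparison uses the same hypomorph MP arrays as the genotype comparison in MP.

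Cox6b2 was 9.16, 9.35 and 8.89 on the hypomorph MP arrays and 7.15, 7.46 and 8.32 on the hypomorph HSC arrays. The groups did not overlap, and the wildtype HSC arrays stood at 7.80 and 7.79. The change was 1.49 (SE 0.32, limma adjusted p = 0.007508), and the call held in all 23 alternative settings, with values from 1.25 to 1.83. Ndufb1, an accessory subunit of complex I, was 0.94 higher (SE 0.26, limma adjusted p = 0.02844), and Uqcrq was 0.94 higher (0.25, 0.02392). Both lost the call without hypomorph HSC 1 or 2 or hypomorph MP 1 or 2, with adjusted p from 0.05942 to 0.1351 for Ndufb1 and from 0.06351 to 0.1087 for Uqcrq. The count of calls was then 1, and it was 11 without hypomorph HSC 3 and 6 without wildtype MP 2. The other probe sets of Uqcrq gave 0.37 and 0.08.

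In B cell progenitors more of these genes were called lower than higher, as was the case for all genes. Against wildtype HSC, 8 of 86 genes were called higher and 25 lower, where 45.1% of all genes were called, 14.9% higher and 30.2% lower. The median change was -0.34, against -0.25 over all genes, and 26 of 86 lay above 0 (38.3% of all genes). Without B cell progenitor 1 the order turned, with -0.20 against -0.25 and 30 of 86 above 0, and without wildtype HSC 2 the median was -0.53. Without overlap, 17 genes were higher and 45 lower, where 23.8% and 44.4% of all genes were. The share called lower was close to that of all genes. The complexes had 11 genes called lower in I, 1 in II, 3 in III, 4 in IV and 6 in V, and 4, 0, 1, 2 and 1 called higher. Of 29 genes of DNA replication and mitosis, 21 were called higher than in HSC and 0 lower. Against MP, 8 of them were called higher and 1 lower. The part of that list in the B cell comparisons was not tested.

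Against wildtype MP, 3 genes were called higher and 24 lower, where 35.9% of all genes were called, 11.2% higher and 24.7% lower. The median was -0.39, against -0.13 over all genes, and 24 of 86 lay above 0 (42.1% of all genes). It was -0.25 without B cell progenitor 1 and -0.26 without wildtype MP 2, against -0.12 and -0.13 over all genes. Without overlap, 5 genes were higher and 42 lower, where 21.4% and 37.7% of all genes were. Complex V had 8 of 17 genes called lower and 0 higher, with a median of -0.59 and 2 genes above 0. Complex II had a median of -0.85, with 2 of 4 called lower and none above 0. Both B cell comparisons use the same 2 B cell progenitor arrays.

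The largest difference was in Cox6b2, at 4.94 and 4.92 on the B cell progenitor arrays against 7.80 and 7.79 on wildtype HSC and 7.43, 8.64 and 7.64 on wildtype MP. The B cell values lay near the median of all values on the arrays, 4.64, which was the filter's limit. The changes were -2.86 (SE 0.40, limma adjusted p = 4.81e-05) and -2.98 (SE 0.36, limma adjusted p = 1.887e-05). Uqcrh, whose promoter is printed above, was 8.37 and 9.07 against 11.72 and 10.84 in HSC and 10.18, 10.89 and 10.56 in MP. It fell by 2.56 and 1.82 on the log2 scale (SE 0.36 and 0.32, limma adjusted p = 5.044e-05 and 0.000539), and its other probe set gave -1.71 and -1.11. Both B cell progenitor arrays were lower than every other array for Cox6b2 and for Uqcrh. Uqcr11, another small subunit of complex III, fell by 1.79 and 1.36 (SE 0.37 and 0.33, limma adjusted p = 0.001188 and 0.005629).

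The ATP synthase contributed Atp5e, the epsilon subunit of the central stalk, at 8.67 and 8.96 against 11.52 and 11.12 in HSC and 9.78, 10.99 and 10.23 in MP. It fell by 2.50 against HSC (SE 0.41, limma adjusted p = 0.0002223) and by 1.52 against MP (SE 0.38, limma adjusted p = 0.006061). Atp5l, the g subunit, fell by 2.18 and 1.58 (SE 0.43 and 0.39, limma adjusted p = 0.0009082 and 0.005983). Atp5g2, a further gene of the c-ring, fell by 1.98 and 1.53 (SE 0.38 and 0.35, limma adjusted p = 0.0007911 and 0.003507). The ATP synthase gene with the highest change was Atp5pb, 1.32 higher than in HSC (SE 0.33, limma adjusted p = 0.004458) with levels of 11.93 and 12.40, and -0.32 from MP (0.447). Its other probe set gave -0.35 and -1.26.

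Complex I was called in both directions. Against HSC the lowest were Ndufa6 at -1.87 (SE 0.40, limma adjusted p = 0.001654), Ndufa7 at -1.51 (0.28, 0.0005007) and Ndufb2 at -1.49 (0.34, 0.00248), all accessory subunits. Against MP the lowest were Ndufb2 at -1.70 (SE 0.31, limma adjusted p = 0.000619) and the assembly factors Ndufaf6 at -1.70 (0.33, 0.001008) and Ndufaf5 at -1.56 (0.30, 0.001022). One of the 3 probe sets of Ndufb2 gave 0.24 against MP and was not called. Higher than HSC were Ndufb6 at 1.52 (SE 0.56, limma adjusted p = 0.04114), Ndufc2 at 1.09 (0.29, 0.006656) and Ndufc1 at 1.07 (0.36, 0.02444). Other probe sets turned the direction of Ndufb6 (-0.22) and Ndufc2 (-0.98 and -0.81, both called lower). Higher than MP was Ndufs5, at 1.17 (SE 0.36, limma adjusted p = 0.02018).

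Complex II did not move as one. Sdhd, an anchor in the membrane, was 7.84 and 7.93 in B cell progenitors, 9.66 and 9.46 in wildtype HSC and 10.23, 10.09 and 10.27 in wildtype MP. The 3 groups did not overlap. It fell by 1.68 and 2.31 (SE 0.45 and 0.41, limma adjusted p = 0.007731 and 0.0005513), while its second, dimmer probe set gave 0.40 and -0.72. With the mean of its probe sets the change against HSC was -0.64 (limma adjusted p = 0.05282). Sdhc was 7.40 and 7.99 and fell by 1.35 against MP (SE 0.28, limma adjusted p = 0.001873), with -0.35 against HSC (0.388). The catalytic subunits Sdha and Sdhb gave 0.12 and -0.16 against HSC and -0.34 and -0.12 against MP, none called. Sdhb was the steadiest of the 4 over the 5 groups, with group means from 10.71 to 10.92.

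Complex IV has isoforms that replace a ubiquitous subunit in some tissues. Cox6a2, the heart and skeletal muscle form, was 7.90 and 6.93 in B cell progenitors, 5.62 and 5.41 in wildtype HSC and 5.90, 6.26 and 5.81 in wildtype MP. The B cell arrays were the highest of all 13, and differed from each other by about 1 log2 unit. The changes were 1.90 (SE 0.30, limma adjusted p = 0.0001506) and 1.43 (SE 0.27, limma adjusted p = 0.0009594), and its second probe set gave 2.13 and 1.58. The partner Cox6a1 gave 0.08 and 0.17, neither called. Cox6b2 fell as described, and its partner Cox6b1 gave -0.33 and -0.49, neither called.

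The other isoforms stayed near the filter's limit or showed small differences. Cox4i2, the lung form, had group means from 4.40 to 4.67, and Cox8c, another testis form, from 7.16 to 7.39, with no call in any comparison. Their partners Cox4i1 and Cox8a fell by 0.90 and 0.99 against HSC (SE 0.25 and 0.33, limma adjusted p = 0.01027 and 0.02667) and gave -0.53 and -0.50 against MP, not called. Cox7a2, the partner of Cox7a1, which did not pass the filter, had group means from 12.51 to 13.22 and no call. Cox7a2l was 13.76 and 13.78 in B cell progenitors, 1.06 higher than in MP (SE 0.20, limma adjusted p = 0.0009463) and 0.34 from HSC (0.238). Ndufa4 was 9.66 and 10.06 and fell by 0.67 against HSC and by 1.16 against MP (SE 0.23 and 0.21, limma adjusted p = 0.03066 and 0.0007254). Its paralogue Ndufa4l2, known for its induction by low oxygen, had group means from 5.42 to 5.70 and no call.

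Some B cell calls were lost when single arrays were left out. Without B cell progenitor 1, the calls were 6 higher and 12 lower against HSC and 2 higher and 11 lower against MP. Against HSC, Cox5a (1.21, limma adjusted p = 0.002906) and Cox6a2 among the genes called higher held in each of the 13 fits that left out 1 array, as did 12 of the 25 called lower, among them Cox6b2, Uqcrh, Uqcr11, Atp5e, Atp5l, Atp5g2, Ndufa6, Ndufa7, Ndufb2 and Sdhd. Against MP, Cox6a2 and Cox7a2l held among those called higher, as did 11 of 24 called lower, among them Cox6b2, Uqcrh, Sdhd, Sdhc, Ndufa4, Atp5g2, Ndufb2, Ndufaf5 and Ndufaf6. Cox6a2 against MP fell from 1.43 to 0.95 without B cell progenitor 1 (limma adjusted p = 0.02555).

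Without wildtype HSC 2, Atp5pb against HSC gave 0.70 (limma adjusted p = 0.06142), Ndufc2 0.63 (0.09611), Ndufc1 0.61 (0.2483) and Ndufb6 0.35 (0.5731), none called, and Cox5a gave 0.75 (0.04299), still called. Ndufb6 gave 2.68 without wildtype HSC 1, and lost the call in 14 of 22 settings in all. Ndufc2 (limma adjusted p = 0.05056) and Ndufc1 (0.1346) also missed the threshold without B cell progenitor 2. Cox4i1 missed it without B cell progenitor 1 (limma adjusted p = 0.07299), Cox8a without any of the 4 arrays compared (0.05004 to 0.1234), and Ndufa4 without wildtype HSC 1 (0.1673) or B cell progenitor 1 (0.1996). Against MP, Atp5e (-1.37, limma adjusted p = 0.06689), Atp5l (-1.12, 0.1155) and Uqcr11 (-1.15, 0.07489) were not called without B cell progenitor 1, and Ndufs5 was not called without any of 4 arrays (wildtype MP 1 or 3, either B cell array; 0.05207 to 0.1387).

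Genes that serve the same machinery but lie outside the naming rule were described from 3 lists. Of 47 tested assembly factors and electron carriers, 3 were called higher and 2 lower in hypomorph HSC, 0 and 0 in hypomorph MP, 7 and 7 in wildtype MP against HSC, and 1 and 1 in hypomorph MP against hypomorph HSC. In B cell progenitors, 3 were called higher and 14 lower against HSC and 2 and 19 against MP, with medians of -0.33 and -0.64. Over all genes the shares called higher and lower were 5.37% and 5.44% in hypomorph HSC and 0.337% and 0.251% in hypomorph MP. They were 13.8% and 18% in wildtype MP against HSC, and 4.18% and 7.47% in hypomorph MP against hypomorph HSC. In B cell progenitors they were 14.9% and 30.2% against HSC and 11.2% and 24.7% against MP, with medians of -0.25 and -0.13. Cycs, cytochrome c, was 1.81 higher in hypomorph than in wildtype HSC (SE 0.34, limma adjusted p = 0.005168), 2.52 higher in wildtype MP (0.34, 0.0001182) and 1.87 higher in B cell progenitors (0.38, 0.001037). All 3 values share the wildtype HSC arrays, and without wildtype HSC 2 the first was 1.17 (limma adjusted p = 0.089) and the third 1.23 (0.01619). Etfa, an electron transfer flavoprotein, was 1.48 higher in hypomorph HSC (limma adjusted p = 0.02511), and 0.91 without wildtype HSC 2 (0.3205). It also missed the threshold without hypomorph HSC 1 (limma adjusted p = 0.05672) or 2 (0.07749).

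In the opposite direction, the complex IV assembly factors Surf1 and Cox19 fell by 0.85 and 0.84 in hypomorph HSC (SE 0.22 and 0.22, limma adjusted p = 0.02568 and 0.02998). Each lost the call without any of 4 of the 5 HSC arrays, hypomorph HSC 1 being the exception (limma adjusted p from 0.05524 to 0.1861 over both). Ttc19, which acts on complex III, fell by 1.94 in wildtype MP against HSC (SE 0.28, limma adjusted p = 0.000208) and by 1.19 in hypomorph MP against hypomorph HSC (0.25, 0.006837). With the mean of its probe sets these were -0.64 (limma adjusted p = 0.03132) and -0.53 (0.08741). In B cell progenitors Uqcc2 and Uqcc3, assembly factors of complex III, fell by 2.43 and 1.92 against HSC (SE 0.41 and 0.25, limma adjusted p = 0.0002728 and 3.256e-05). Etfb and Acad9, a complex I assembly factor, fell by 1.82 and 1.74 against MP (SE 0.26 and 0.24, limma adjusted p = 7.429e-05 and 6.384e-05). Sdhaf2, which assembles complex II, was 1.33 and 1.35 higher (limma adjusted p = 0.0006694 and 0.000374).

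Of 24 genes of the tricarboxylic acid cycle and pyruvate entry, 2 were called higher and 1 lower in hypomorph HSC, 9 and 3 in wildtype MP against HSC, 4 and 8 in B cell progenitors against HSC, and 0 and 9 against MP. In hypomorph MP against wildtype MP 0 were called, and the median was -0.16, against -0.02 over all genes. The shares of all genes called in each comparison are those given for the assembly factors and electron carriers. Pdk1, a kinase that shuts off pyruvate dehydrogenase, was 2.25 higher in hypomorph HSC (SE 0.55, limma adjusted p = 0.01889) and 2.61 higher in wildtype MP (0.55, 0.002683). Without wildtype HSC 2 these were 1.62 (limma adjusted p = 0.2419) and 1.97 (0.05282), and the first also missed the threshold without hypomorph HSC 2 (0.07583). The mean of its probe sets gave 0.67 and 0.78, neither called. Idh2, the mitochondrial NADP-dependent isocitrate dehydrogenase, fell by 1.71 against HSC and by 2.32 against MP in B cell progenitors (SE 0.38 and 0.34, limma adjusted p = 0.002031 and 0.0001158). The mean of all probe sets of Idh2 gave 0.17 and 0.30 in their place.

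Of 24 regulators of mitochondrial biogenesis and mitochondrial DNA, 1 was called higher in hypomorph HSC and 0 lower, 6 and 2 in wildtype MP against HSC, 8 and 6 in B cell progenitors against HSC, and 1 and 6 against MP. In hypomorph MP against wildtype MP 0 were called. These counts too stand beside the shares of all genes given for the assembly factors and electron carriers. Ppargc1a, the coactivator PGC-1alpha, was 3.63 higher in B cell progenitors than in HSC and 3.72 higher than in MP (SE 0.28 and 0.25). The filter asks for 2 arrays at or above 4.64, which the 2 B cell progenitor arrays can meet alone. Ppargc1a had a value in 19 alternative settings, where Sirt3 had one in 22. Its probe set may thus have passed only through the group in which it was high, so its p-values are not used as support. With no filter on low signal, another probe set, which had not passed the filter, stood for it and gave 1.35 and 1.41, both called. Sirt3, the main mitochondrial deacetylase, fell by 2.81 and 1.64 (SE 0.27 and 0.25, limma adjusted p = 1.818e-06 and 0.0001412), and Myc changed by -2.57 and -3.36 (0.34 and 0.31, 3.086e-05 and 1.195e-06). Gabpa, the factor whose letters were searched in the promoters, was 1.74 higher in wildtype MP than in wildtype HSC (SE 0.34, limma adjusted p = 0.001559) and differed by -0.68 between the MP genotypes (0.30, 0.3165). Hif1a, which drives glycolytic genes in low oxygen, was 1.75 higher in wildtype MP than in wildtype HSC (SE 0.28, limma adjusted p = 0.0004018). In the test of the difference between the genotype effects, 1 assembly factor was called higher, 1 cycle gene higher and 2 lower, and 2 regulators lower. Of all genes, 2.37% were called higher and 3.27% lower in that test. Surf1 had a difference of 1.34 (SE 0.30, limma adjusted p = 0.02091) and Gabpa one of -1.77 (0.45, 0.03629). Each lost the call without some of the arrays compared, Surf1 in 5 and Gabpa in 13 of 23 settings, with limma adjusted p up to 0.06572 and 0.1048.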

How the data were processed

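The authors deposited log2 intensities normalized by RMA, per the submitters' processing notes, as 2 sets of 13 and 11 columns; the first was used and the second, which has no B cell progenitors, was an alternative. The total RNA came from 35000 to 100000 sorted cells, per the labels' protocols. Probe sets carried GEO's platform annotation: 34945 had 1 symbol, 932 several and 9211 none. The members and gene lists were chosen with earlier results of these data known.

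Probe sets at or above the median of all values (4.64) on at least 2 arrays were kept, and control probe sets left out. Of a gene's kept probe sets, the one with the highest mean stood for it. One limma fit (version 3.58.1, R 4.3.3) over 13 arrays and 5 groups left 8 residual degrees of freedom, and p-values were Benjamini-Hochberg adjusted over 12764 genes. The fit was tested on simulated data. Genes were named by a rule: per comparison and complex, up to 3 called genes with the largest change in each direction, or the gene with the smallest p; the Sdh genes; complex IV isoforms with their partners, Ndufa4, Ndufa4l2 and Cox7a2l; genes whose probe sets disagree; and up to 2 called genes each way per pathway list. Not every gene given by the rule is printed for every comparison, and several genes of the pathway lists are left out. Ndufb7, Ndufb9, Ndufs1, Atp5b and Atp5c1 were named after their values were seen. Alternatives were the second RMA set, a replicate block, a trended prior, array weights, other filters and probe set rules, centred arrays, only the arrays compared, and leaving out each array. Intensity has no count depth; brightness near 4.64 limits dim genes. Replicate numbers gave no clear sign of pairing: 6 of 23 same-numbered pairs correlated over 0.1 (r from -0.31 to 0.30). The values correlated were deviations from the means of groups of 2 or 3 arrays, and differently numbered arrays were not compared. Pairing can therefore not be excluded.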

Additional observations from a re-analysis of the deposited data

Results flagged for a closer look

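The effect of the hypomorph genotype on Atp5pb differed between the cell types by the test of the difference itself: it was -1.58 (log2) in MP minus HSC, by limma with an adjusted p of 0.03597. Wildtype HSC 2 was the lowest array for this gene, at 10.21, and the difference was -0.95 without that array. The other probe set of the gene gave -1.12. The call was lost in 10 of 23 alternatives, over which the adjusted p ran from 0.002998 to 0.2822.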

How the results depend on the processing

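Main counts of called genes were 5 for hypomorph HSC, 0 for hypomorph MP, 1 for the difference of effects, 15 and 3 for MP against HSC in wildtype and hypomorph, and 33 and 27 for B cell progenitors against HSC and MP. Over the fits that left out 1 array they ranged from 0 to 10, 0 to 8, 0 to 16, 9 to 26, 1 to 11, 18 to 37 and 13 to 31. Testing every kept probe set gave 12, 1, 2, 30, 5, 60 and 44 (162 probe sets). For hypomorph HSC, the replicate block gave 3, the trended prior 8, probe sets without _s or _x 3, and only the arrays compared 0. For hypomorph MP, array weights gave 50, of which 44 were higher and 6 lower. Probe sets without _s or _x gave 1 (Atp5c1) and only the arrays compared 1 (Atp5b), both called lower. The 1 call with every kept probe set was Atp5c1, also lower. For the difference, the second RMA set gave 2, the replicate block 0, the trended prior 4, array weights 25, the mean of probe sets 3, and probe sets without _s or _x 0. For MP against HSC in hypomorphs, array weights gave 19. The other counts were within 1.5 times. The replicate block moved no other count by over 1.5 times, and whether its numbers pair the arrays is not known. Over all settings the medians ran from -0.09 to 0.12, 0.23 to 0.46, 0.16 to 0.44, -0.12 to 0.18, 0.26 to 0.38, -0.53 to -0.20 and -0.50 to -0.25, so those of hypomorph HSC and of wildtype MP against HSC changed sign. The 1 shift beyond 0.18, the SD between arrays of a group of the median residual, was that to -0.53 without wildtype HSC 2.

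Reversed values came from other probe sets. Ndufc2 turned to -0.16 in hypomorph HSC, and to -0.98 in B cell progenitors against HSC, with probe sets without _s or _x, and to -0.23 in the latter with the mean of probe sets. Atp5pb in B cell progenitors against HSC turned to -0.35 with probe sets without _s or _x. Idh2 turned to 0.17 and 0.30 with the mean of probe sets. Why these probe sets differ was not tested. Of the single-gene values, 259 lost and 73 gained a call. The B cell comparisons could not be run on the second RMA set. Signal near the filter limits Cox4i2 and Ndufa4l2.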
